A study of Homo sapiens with 8 samples.

Results

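The genes described here are 8 transcription factor genes of gut and foregut epithelium, FOXA1, FOXA2, FOXA3, CDX1, CDX2, SOX9, ISX and PDX1, taken from a list of names. All 8 were among the 30755 gene symbols of the RNA-seq table. The table holds 4 libraries of the oesophageal adenocarcinoma cell line ESO26: 2 libraries of cells with siRNA knockdown of HNF4A (siHNF4A) and 2 libraries of control cells. All 4 come from this single established line, and neither the siRNA sequence, the treatment of the controls nor the time after transfection is given in the sources used here. The series text speaks of triplicates, whereas the labels and the table hold 2 libraries a group. HNF4A and Flag-tagged GATA4 were also profiled by ChIP-seq, and 4C libraries used the HNF4A promoter as bait. The 4C libraries were not analysed here. The ChIP-seq peaks were not placed near genes, because hg19 is the build named in the submitters' processing notes and the gene positions at hand are on GRCh38.

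FOXA proteins are forkhead factors, called pioneer factors because they can bind their sites in closed chromatin and make them accessible to other regulators. CDX1 and CDX2 are caudal-type homeodomain factors that set and maintain intestinal identity, and CDX2 appears in the oesophagus when squamous epithelium is replaced by intestinal metaplasia. SOX9 is an HMG-box factor of crypt progenitors, ISX is an intestinal homeodomain factor that restrains vitamin A uptake, and PDX1 is a homeodomain factor of pancreas, duodenum and gastric antrum. HNF4A, the gene that was lowered, encodes a nuclear receptor that shares many binding regions with FOXA and CDX2 in liver and gut.

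FOXA3 and ISX rose when HNF4A was lowered, and their promoters are shown beside those of FOXA1 and CDX2, which were not called. RefSeq promoter entries of GRCh38.p14 were matched for these 4 of the 8 genes. Each sequence holds the 250 bases before the annotated start, written 5′ to 3′ along the gene. Capitals mark matches, on either strand, to letters searched for the families of factors in this study. Nuclear receptor core sites were searched as CAAAG and also as AGGTCA. Sites of the GATA family were searched as AGATAA and also as TGATAA. Sites of the forkhead family were searched as TGTTTAC and also as TGTTTGC. Those of the CDX family were searched as TTTATNG, and the TATA box was searched as TATAAA. The reverse of TATAAA overlaps TTTATNG where N is A.
FOXA3, chr19:45864076-45864325, plus strand: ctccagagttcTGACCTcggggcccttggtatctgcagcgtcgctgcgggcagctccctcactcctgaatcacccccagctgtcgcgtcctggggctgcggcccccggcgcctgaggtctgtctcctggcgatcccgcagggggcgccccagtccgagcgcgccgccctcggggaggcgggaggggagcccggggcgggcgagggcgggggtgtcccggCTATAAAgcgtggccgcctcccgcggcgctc
ISX, chr22:35065908-35066157, plus strand: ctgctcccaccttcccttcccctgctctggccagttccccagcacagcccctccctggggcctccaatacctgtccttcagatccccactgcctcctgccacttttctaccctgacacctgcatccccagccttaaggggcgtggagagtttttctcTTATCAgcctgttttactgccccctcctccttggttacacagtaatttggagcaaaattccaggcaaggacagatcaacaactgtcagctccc
FOXA1, chr14:37595250-37595499, minus strand: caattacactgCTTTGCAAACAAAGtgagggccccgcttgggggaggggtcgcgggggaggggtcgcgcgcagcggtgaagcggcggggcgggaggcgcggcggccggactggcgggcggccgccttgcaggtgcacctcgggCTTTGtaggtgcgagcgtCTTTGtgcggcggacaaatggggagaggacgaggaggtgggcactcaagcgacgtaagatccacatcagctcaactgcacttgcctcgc
CDX2, chr13:27969316-27969565, minus strand: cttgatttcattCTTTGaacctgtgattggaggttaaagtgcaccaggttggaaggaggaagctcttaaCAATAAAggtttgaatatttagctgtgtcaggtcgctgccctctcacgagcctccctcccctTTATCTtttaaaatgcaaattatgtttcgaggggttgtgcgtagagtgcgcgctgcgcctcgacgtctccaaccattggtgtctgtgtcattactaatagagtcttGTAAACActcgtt

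The FOXA3 window held TGACCT, the reverse of AGGTCA, at positions -239 to -234 from the start, and AGGTCA on either strand is found in 12.0% of 34796 distinct RefSeq windows of this length. FOXA3 also held TATAAA at -30 to -25, which 10.8% of windows hold. The CDX letters overlap that match, as CTATAAA from -31 to -25, and 8.95% of windows hold them. The ISX window held 1 match, TTATCA at -93 to -88, the reverse of the GATA letters TGATAA, found in 6.68% of windows. In FOXA1 a forkhead match, GCAAACA at -235 to -229, overlapped a CAAAG match on each strand, and 2 further CTTTG matches lay at -107 to -103 and -89 to -85. TGTTTGC is found in 3.23% of windows and CAAAG in 42.1%. CDX2 held matches of 4 kinds: CTTTG at -238 to -234, the CDX letters as CAATAAA at -181 to -175, the GATA letters as TTATCT at -119 to -114, and the forkhead letters as GTAAACA at -13 to -7. AGATAA is found in 9.21% of windows and TGTTTAC in 2.98%. The motifs were chosen after the sequences were seen, so each share describes 1 motif alone and does not test the matches. Base composition differed widely, with 28 CpG dinucleotides and 75.2% G + C in the FOXA3 window, 26 and 67.2% in FOXA1, 10 and 45.2% in CDX2, and 1 CpG and 56% G + C in ISX. The median window held 11 CpG dinucleotides and 58% G + C.

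The knockdown itself was checked in HNF4A, which had 4129 and 3937 normalized counts in the control libraries and 1140 and 932 in the siHNF4A libraries. The siHNF4A mean was 25.7% of the control mean, a log2 fold change of -1.97 (standard error 0.095, adjusted p = 1.59e-05 in limma). Normalized counts summed to between 17912507 and 18613685 per library. Steps in the low values placed the siHNF4A libraries at 1.36 and 1.21 times the depth of control 1 and control 2 at 1.09 times, and absolute depth is unknown. Fewer genes were listed at 0 in siHNF4A (4260 and 4362) than in control (5479 and 5640). Normalized counts are not divided by gene length, so levels are compared between libraries and not between genes. In RNA from whole cultures, fewer cells of a type and less RNA per cell cannot be told apart. The gut epithelial markers EPCAM, KRT8, KRT18, KRT19 and CDH1 were high in all 4 libraries, the lowest value being 4296 for KRT18, while KRT7 stayed at 15.1 to 28.6. EPCAM, KRT8 and KRT18 fell and KRT19 rose, the last with a call that was lost without control 1 or either siHNF4A library (adjusted p up to 0.163 in limma). Markers of other cell types were low: summed over each list, squamous markers reached 33.6 to 54.7 in control and 44.0 to 71.0 in siHNF4A, endothelial markers 15.2 to 24.6 and 47.2 to 64.0, and leukocyte markers 21.6 to 22.8 and 20.7 to 47.3. Of these, KRT14 (1 of 3 squamous markers tested) and VWF (1 of 2 endothelial markers tested) rose, the latter from 8.55 and 6.68 to 47.5 and 36.4, a call lost without siHNF4A 1 (adjusted p = 0.0756 in limma). KRT14 had 0.64 and 2.29 in control and 12.2 and 25.7 in siHNF4A, and both genes passed the filter on low values only through their siHNF4A libraries. Without either siHNF4A library KRT14 was below the filter. Fibroblast markers summed to 136 to 210.2 in control and 237 to 240.01 in siHNF4A, most of it COL1A1 (179 and 108 in control, 202 and 212 in siHNF4A), and none of the 3 tested was called. The hepatocyte markers ALB, TAT and CYP3A4 and the pancreatic marker PRSS1 did not pass the filter on low values, and ALB was listed at 0 in both controls. The part of these shifts in the results below was not tested.

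Of the 8 genes, all passed the filter (at least 10 normalized counts on average), 2 were called higher at an adjusted p under 0.05 in limma and 0 lower. Over all 15577 genes tested 14.1% were called in either direction, 6.02% higher and 8.11% lower, and after rescaling to equal totals 1136 genes were called higher of 2146 in all, against 938 of 2202. The median log2 fold change of the 8 genes was 0.10, with 7 values above 0 and 1 below, against a median of -0.0073 over all genes tested. In 4 of the 8 genes both siHNF4A libraries lay above both controls, and in the other 4 the groups overlapped. Among all genes tested the groups did not overlap in 57%, with siHNF4A higher in 26.9% and lower in 30.1%. The smallest two-sided p of an exact permutation test over 2 and 2 libraries is 0.33, so calls depend on the variances limma pools across genes.

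**Figure D1:**
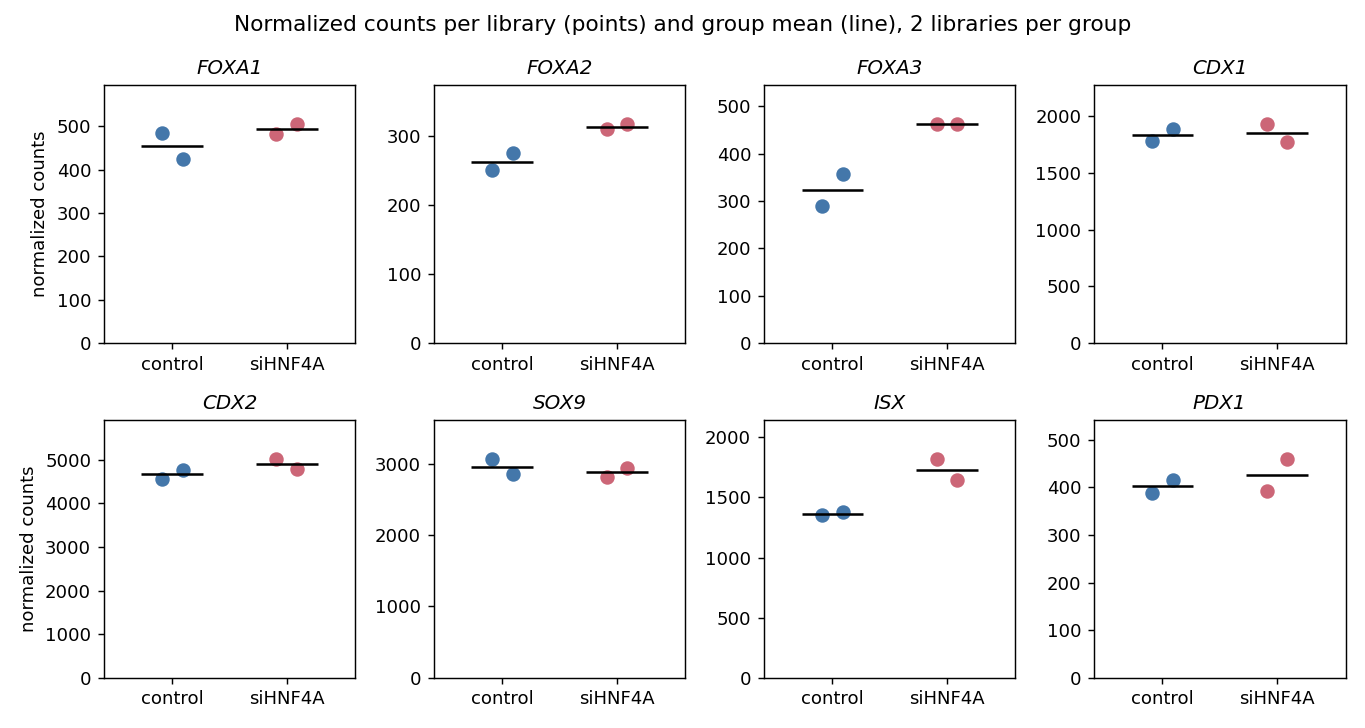
Normalized counts (vertical axes, each from 0) of the 8 genes in 2 control and 2 siHNF4A libraries; points are libraries and lines are group means. FOXA2, FOXA3, CDX2 and ISX have both siHNF4A points above both control points, by the widest margin relative to level in FOXA3 and ISX.

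The FOXA paralogs came first. FOXA3, which in liver and gut acts beside its paralogs on metabolic and secretory genes, had 290.1 and 356 normalized counts in control and 461 and 462 in siHNF4A. The 2 siHNF4A libraries were nearly equal, both lay above the controls, and the controls differed from each other by more than the siHNF4A libraries did. The mean rose from 323 ± 46.4 to 461 ± 0.30 (SD, n = 2 libraries each), which is 143% of control. The log2 fold change was 0.52 (95% interval 0.23 to 0.81, standard error 0.13, adjusted p = 0.027 in limma), and 15.0% of all tested genes had a larger change in size. The call was lost without control 1, with a log2 fold change of 0.37 (adjusted p = 0.091 in limma), and without siHNF4A 1 or siHNF4A 2 (adjusted p = 0.120 and 0.117), while without control 2 it held at 0.67 (adjusted p = 0.0054).

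FOXA2, a founder factor of endoderm that is later needed in foregut and liver, had 250.4 and 276 normalized counts in control and 310.0 and 317 in siHNF4A. The groups did not overlap, but the log2 fold change of 0.25 was not called (95% interval -0.036 to 0.54, adjusted p = 0.231 in limma). FOXA1, the paralog best known from hormone-responsive epithelium, had 484 and 426 in control and 483 and 505 in siHNF4A. One control library equalled the lower siHNF4A library to within 1 normalized count, and the log2 fold change of 0.12 was not called (95% interval -0.13 to 0.38, adjusted p = 0.527 in limma). These intervals leave room for a rise of FOXA2 as large as the estimate for FOXA3.

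To compare the paralogs without the scaling between libraries, log2 ratios were taken within each library. The FOXA3/FOXA1 log2 ratio was -0.74 and -0.26 in control and -0.067 and -0.13 in siHNF4A. The FOXA3/FOXA2 log2 ratio was 0.21 and 0.37 in control and 0.57 and 0.54 in siHNF4A. In both ratios the siHNF4A libraries lay above the controls, with group differences of 0.40 and 0.27. The exact two-sided permutation p was 0.33 for each, the smallest that 2 against 2 libraries allow. The FOXA2/FOXA1 log2 ratio overlapped between groups, with -0.95 and -0.63 in control and -0.64 and -0.67 in siHNF4A. The FOXA3/FOXA1 difference was 0.16 without control 1 and 0.64 without control 2.

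Of the caudal factors, CDX2 had 4563 and 4764 normalized counts in control and 5017 and 4791 in siHNF4A. Its groups did not overlap, yet the gap between the higher control and the lower siHNF4A library was smaller than the spread inside either group. The log2 fold change was 0.072 (95% interval -0.062 to 0.21, adjusted p = 0.475 in limma), with means of 4664 ± 142 and 4904 ± 160.0 (SD, n = 2 libraries each). CDX1, its paralog of the crypt compartment, had 1779 and 1883 in control and 1928 and 1772 in siHNF4A, so the siHNF4A libraries lay on either side of the controls. Its log2 fold change was 0.014 (95% interval -0.16 to 0.19, adjusted p = 0.926 in limma). The CDX1/CDX2 log2 ratio was -1.36 and -1.34 in control and -1.38 and -1.43 in siHNF4A, a group difference of -0.058 (exact two-sided permutation p = 0.33).

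ISX, whose product represses the vitamin A precursor enzyme BCO1 and the lipid receptor SCARB1 in the intestine, had 1352 and 1376 normalized counts in control and 1820 and 1642 in siHNF4A. Both siHNF4A libraries lay above the closely spaced controls. The mean rose from 1364 ± 16.7 to 1731 ± 126 (SD, n = 2 libraries each), which is 127% of control, with a log2 fold change of 0.34 (95% interval 0.16 to 0.52, standard error 0.080, adjusted p = 0.0200 in limma). A larger change in size was seen in 28.8% of all tested genes, so the rise of ISX was modest for this comparison, and the median change in size of the 2202 called genes was 0.45. Without siHNF4A 1, the higher of the siHNF4A libraries, the log2 fold change was 0.27 and the call was lost (adjusted p = 0.151 in limma). In the RefSeq annotation ISX is the only one of the 8 genes whose span overlaps that of another gene, the noncoding LOC124905110, and the sources do not say if counting was stranded.

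SOX9 had 3066 and 2854 normalized counts in control and 2817 and 2940 in siHNF4A. It was the only one of the 8 with a value below 0, a log2 fold change of -0.039 (95% interval -0.19 to 0.11, adjusted p = 0.751 in limma), and its groups overlapped. PDX1 had 389 and 416 in control and 393 and 460 in siHNF4A, also with overlap, and a log2 fold change of 0.080 (95% interval -0.20 to 0.36, adjusted p = 0.719 in limma). For SOX9, CDX1 and CDX2 the interval kept the change within 0.21 on the log2 scale in either direction, whereas for PDX1 and FOXA1 it reached 0.36 and 0.38.

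**Figure D2:**
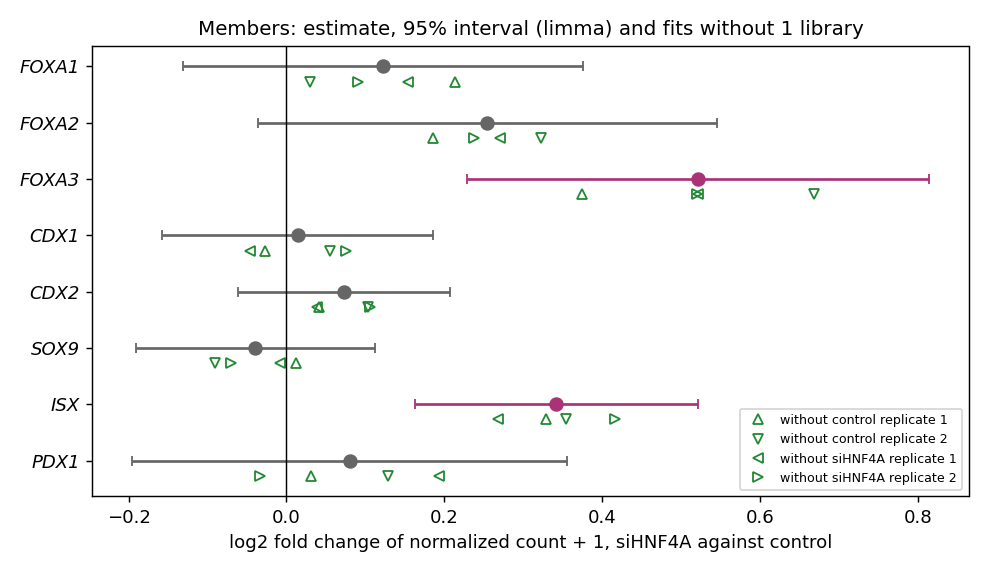
Log2 fold changes of the 8 genes (horizontal axis, siHNF4A against control; filled points with 95% intervals from limma, called genes in purple) and the estimates when 1 library was left out (open green markers). The intervals of FOXA3 and ISX lie above 0 and those of the other 6 genes include 0.

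The genes beside the 8 on their chromosomes were compared to see whether a rise was shared along a locus. Within 3 places on either side lay 44 other annotated genes, of which 11 were tested, and 0 were called in limma (smallest adjusted p = 0.0659). Over all 15577 genes tested 14.1% were called and 6.02% were called higher. With so few neighbours tested, 0 of 11 cannot decide whether a rise was shared. No gene beside ISX was tested, so the comparison does not cover that locus. FOXA3 on chromosome 19 lies between SYMPK, a polyadenylation factor with a log2 fold change of 0.045, and IRF2BP1, with 0.14 (0.084 without control 1). MYPOP, the next gene after IRF2BP1, had 73.3 and 62.2 normalized counts in control and 129 and 97.2 in siHNF4A, and its log2 fold change of 0.72 gave that smallest adjusted p. MYPOP was called without control 1 (adjusted p = 0.041 in limma) and with the replicate number as a block (adjusted p = 0.0418), as was SLC6A7, beside CDX1, without control 1 (adjusted p = 0.0238). PDX1 and CDX2 lie near each other on chromosome 13, with the pseudogene ATP5F1EP2 and LINC00543 between them. LINC00543 had a log2 fold change of 0.11 with overlapping groups. SOX9-AS1, the noncoding gene upstream of SOX9, had 87.3 and 128 in control and 153 and 121 in siHNF4A (log2 fold change 0.36, adjusted p = 0.336 in limma). LINC00261, next to FOXA2, had 42.8 and 47.3 in control and 43.7 and 22.7 in siHNF4A (log2 fold change -0.50, adjusted p = 0.397 in limma). The value of LINC00261 was -0.040 without siHNF4A 2 and -0.96 without siHNF4A 1, and that of SOX9-AS1 0.092 without control 1 and 0.63 without control 2. The remaining tested neighbours, MIPOL1, TTC6, DMWD, PDGFRB and SLC6A7, had log2 fold changes of 0.0079, 0.53, 0.099, 0.094 and 1.02. Leaving out 1 library moved TTC6 to between 0.19 (without siHNF4A 1) and 0.86 (without siHNF4A 2), and SLC6A7 to 0.66 without control 2.

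The other genes of the families were then examined. Of 37 further forkhead genes 22 were tested, 3 rose, 1 fell and 18 were not called, with a median log2 fold change of 0.13. Over all 15577 genes tested 14.1% were called, 6.02% higher and 8.11% lower. The forkhead and SOX counts are small and are given beside that share without a test. FOXP4, a forkhead factor of foregut and lung development, rose from 1005 and 1017 to 1841 and 1756 normalized counts, a log2 fold change of 0.83 (adjusted p = 2.20e-04 in limma) and thus more than FOXA3. FOXJ1, the factor of motile cilia, and FOXJ3 each rose by 0.28 on the log2 scale (adjusted p = 0.0402 and 0.0374 in limma). FOXM1, a factor of mitotic gene expression, fell by 0.34 on the log2 scale (adjusted p = 0.0106 in limma). Of 14 further SOX genes 9 were tested, 2 rose and 7 were not called, with a median of 0.31. SOX4, a progenitor factor, rose from 3929 and 3508 to 5055 and 5359 normalized counts (log2 fold change 0.49, adjusted p = 0.0022 in limma), and SOX12 rose by 0.31 on that scale (adjusted p = 0.0460). FOXP4 and SOX4 stayed called with any 1 library left out, whereas SOX12 and FOXJ1 were not called in any of those 4 fits (adjusted p up to 0.213 and 0.202 in limma). FOXJ3 was not called without control 1, siHNF4A 1 or siHNF4A 2 (adjusted p up to 0.194), nor FOXM1 without siHNF4A 2 (adjusted p = 0.0958).

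Of 25 other intestinal and foregut transcription factors 20 were tested, and 8 rose, 2 fell and 10 were not called, with a median log2 fold change of 0.33. Over all genes tested 14.1% were called and 6.02% were called higher. The largest rises were those of ATOH1 and NEUROG3. ATOH1, which commits crypt cells to the secretory lineage, had 7.33 and 7.76 normalized counts in control and 63.2 and 84.1 in siHNF4A, a log2 fold change of 3.11 (standard error 0.36, adjusted p = 7.00e-04 in limma). ATOH1 passed the filter only through its siHNF4A values, both controls being under 10, so its call and its rank are a description. NEUROG3, which starts the enteroendocrine programme, had 18.3 and 13.3 in control and 130 and 136 in siHNF4A, a log2 fold change of 3.01 (standard error 0.28, adjusted p = 2.38e-04 in limma). PROX1 rose from 29.4 and 37.5 to 75.7 and 100.4 normalized counts, and ASCL2, a Wnt-driven stem cell factor, from 858 and 875 to 1435 and 1200.1. EHF, an epithelial ETS factor, rose from 5347 and 5376 to 6779 and 6874. SPDEF, a factor of goblet cell maturation in the same list, had 77.7 and 81.5 in control and 90.8 and 78.6 in siHNF4A, with overlapping groups (log2 fold change 0.085, adjusted p = 0.834 in limma). ATOH1, NEUROG3, ASCL2 and EHF stayed called with any 1 library left out. PROX1 was not called without siHNF4A 2 (adjusted p = 0.110 in limma).

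**Figure D3:**
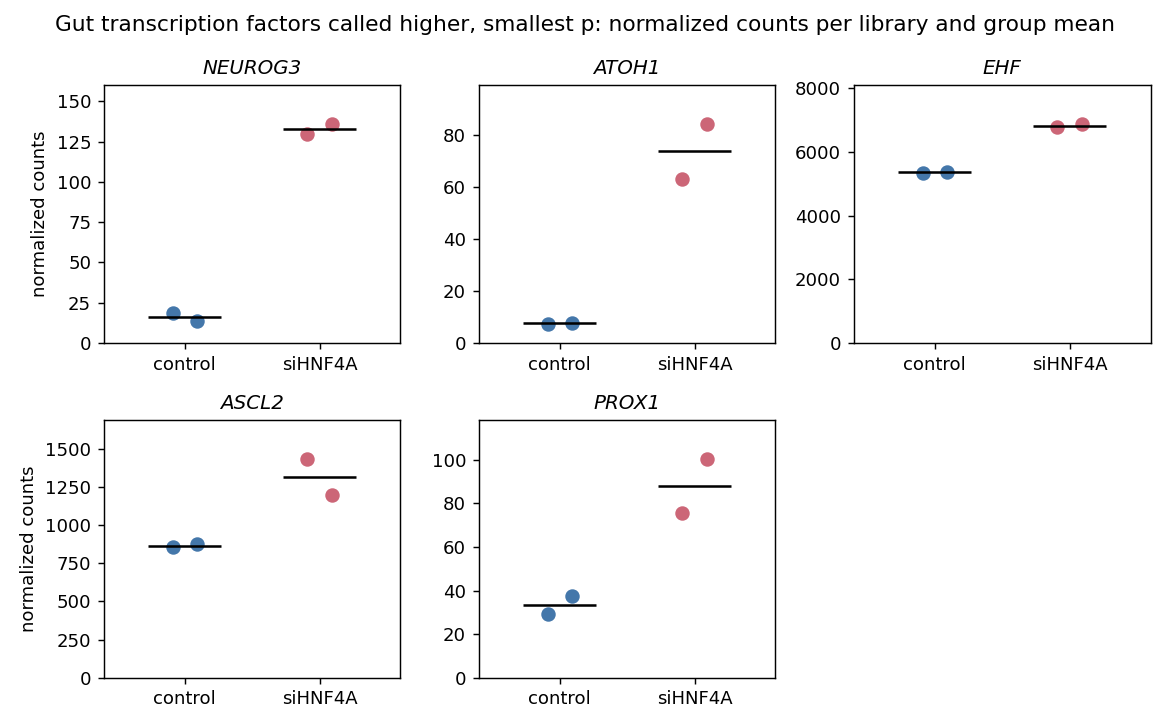
Normalized counts (vertical axes, each from 0) of the 5 gut transcription factors called higher with the smallest p, in 2 control and 2 siHNF4A libraries; points are libraries and lines are group means. NEUROG3 and ATOH1 go from under 20 in control to between 63.2 and 136 in siHNF4A, and in all 5 genes both siHNF4A points lie above both control points.

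Genes known to depend on these factors, or in the case of SOX9 only related to it, were counted next. Of 20 genes of intestinal differentiation that depend on CDX2, 17 were tested, and 2 rose, 4 fell and 11 were not called, with a median log2 fold change of 0.018. Over all genes tested 14.1% were called, 6.02% higher and 8.11% lower. GUCY2C, the guanylin receptor of the brush border, fell from 2329 and 2407 to 1532 and 1547 normalized counts (log2 fold change -0.62, adjusted p = 6.42e-04 in limma). CLDN2, a claudin of leaky tight junctions, fell from 416 and 495 to 235 and 209.6 (log2 fold change -1.03, adjusted p = 0.0016 in limma). The brush border enzymes ALPI and ANPEP fell by 2.60 and 1.56 on the log2 scale (adjusted p = 0.0167 and 0.0230 in limma), both at low levels, ALPI from 23.4 and 15.1 to 2.62 and 1.97. ALPI passed the filter only through its control values, and without either control library it was below the filter. CDH17, the intestinal cadherin, rose by 0.20 on the log2 scale and the disaccharidase SI by 0.72 (adjusted p = 0.0258 and 0.0384 in limma). GUCY2C and CLDN2 stayed called with any 1 library left out. ALPI lost its call without either siHNF4A library (adjusted p up to 0.0735 in limma), ANPEP without control 1 or siHNF4A 1 (up to 0.132), CDH17 without control 1 or either siHNF4A library (up to 0.158) and SI without control 2 or either siHNF4A library (up to 0.196). SI was also not called after quantile normalization (log2 fold change 0.65, adjusted p = 0.0570 in limma). The calls in this list thus went in both directions, though both rises were among the calls lost when 1 library was left out. CDX2 and CDX1 RNA was not called, and the part of these factors in the changes was not tested.

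Of 20 genes known as FOXA-dependent in other epithelia 15 were matched in the table and 5 were tested, the other 10 having means under 10 normalized counts, among them the liver products ALB, TTR and APOB. AGR2, a disulfide isomerase of mucus-secreting cells, rose from 1580 and 1819 to 2522 and 2636 normalized counts, a log2 fold change of 0.60 (adjusted p = 0.0017 in limma). XBP1, a factor of the secretory stress response, fell by 0.29 on the log2 scale (adjusted p = 0.0381 in limma). AGR2 stayed called with any 1 library left out, and XBP1 lost its call without control 2 or either siHNF4A library (adjusted p up to 0.185) and after rescaling to equal totals or quantile normalization (0.0527 and 0.0622). The other 3 were not called (14.1% of all genes tested were called in either direction), and the median of the 5 was -0.21. The sign of this median was not stable, with 0.089 without control 1 (6 genes tested) and 0.28 with no filter (14 tested).

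Of 15 genes related to SOX9 in stem and progenitor epithelium 14 were tested, and 6 rose, 4 fell and 4 were not called, with a median of 0.12. Over all genes tested 14.1% were called in either direction. The groups overlapped in SOX9 itself, and its part in these calls was not tested. OLFM4, a crypt base marker, fell from 15901 and 14591 to 9125 and 7815 normalized counts (log2 fold change -0.85, adjusted p = 1.96e-04 in limma). The cell cycle gene CCND1 fell by 1.63 and the Wnt receptor ligase ZNRF3 by 0.61 on the log2 scale. The ephrin receptor EPHB2 rose from 2732 and 2919 to 4436 and 4207, and PROM1, a progenitor surface protein, from 132 and 120.3 to 305 and 248. OLFM4, CCND1, ZNRF3, EPHB2 and PROM1 stayed called with any 1 library left out. The list thus held opposite changes of crypt genes, and SOX4 and ASCL2, described above, are also in it.

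Of 12 genes known as ISX or PDX1 targets 4 were tested and 1 was called, beside 14.1% called over all genes tested. SCARB1, a target that ISX represses in the intestine, fell from 2142 and 2112 normalized counts to 1521 and 1382, a log2 fold change of -0.55 (standard error 0.077, adjusted p = 0.0018 in limma), and it stayed called with any 1 library left out. BCO1, listed under its older name BCMO1, had 187 and 155 in control and 158 and 214 in siHNF4A, with overlapping groups (log2 fold change 0.11, adjusted p = 0.753 in limma). MAFA and MUC6, at most 19.6 normalized counts in any library, were not called. The median of the 4 genes was 0.33, midway between BCMO1 and MAFA, and its sign was not stable: it was -0.15 without control 1, -0.024 without control 2 and -0.11 without siHNF4A 2, and -0.22 with the filter at a mean of 50. The islet genes IAPP and NEUROD1 were at or below 3.03 in all 4 libraries.

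**Figure D4:**
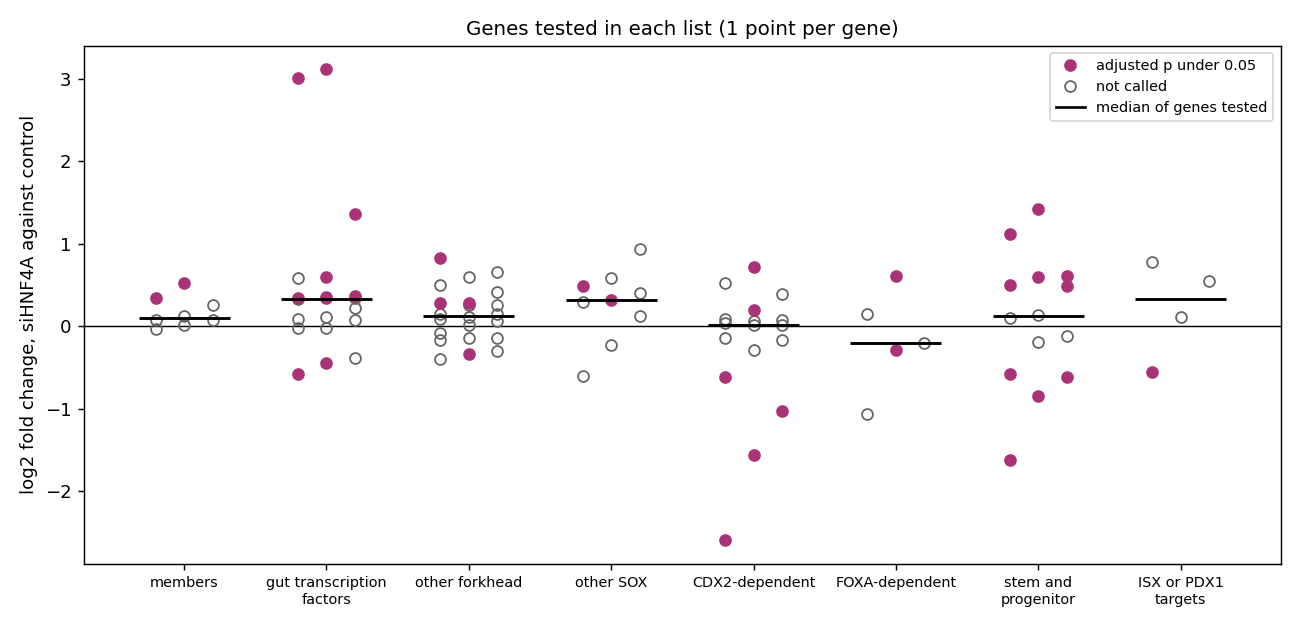
Log2 fold changes (vertical axis, siHNF4A against control) of the genes tested among the 8 factors and in each list, 1 point per gene; filled points have an adjusted p under 0.05 in limma and lines are medians of the genes tested. The 2 highest points among gut transcription factors are ATOH1 at 3.11 and NEUROG3 at 3.01, and the 8 factors span -0.039 to 0.52.

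The genes whose pattern over the 4 libraries was most like that of the 2 called factors were found by the Euclidean distance between mean-centred log2 values, among the 10918 genes averaging 100 or more normalized counts. For FOXA3 these were ZNF184, TRIM36 and HARS, at distances of 0.042, 0.055 and 0.063 on the log2 scale. Chosen for this likeness, they had the lower value in control 1 and nearly equal siHNF4A libraries. HARS had 497, 574, 774 and 774 normalized counts in the order control 1, control 2, siHNF4A 1 and siHNF4A 2. For ISX the nearest were STK16, TADA3 and BIRC5, at distances of 0.020, 0.024 and 0.027. BIRC5, the apoptosis inhibitor survivin, had 1657 and 1702 in control and 2290.4 and 2037 in siHNF4A, and like ISX was higher in siHNF4A 1 than in siHNF4A 2. ZNF184, TRIM36, HARS and BIRC5 were called higher and STK16 and TADA3 were not (adjusted p = 0.0557 and 0.0551 in limma). Each of the 4 calls was lost when 1 library was left out: ZNF184 and TRIM36 without control 1, siHNF4A 1 or siHNF4A 2 (adjusted p up to 0.158 and 0.189), HARS without either siHNF4A library (up to 0.0583) and BIRC5 without siHNF4A 1 (0.124). STK16 and TADA3 were called with the filter at a mean of 50 (adjusted p = 0.0444 and 0.0422 in limma), after rescaling to equal totals (0.0356 and 0.0354) and after quantile normalization (0.0392 and 0.0400). The distances rest on 4 libraries and are given as a description. The order of the libraries and the direction and size of change follow from choosing genes by distance to called factors. The calls of these genes therefore add no support for FOXA3 or ISX.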

How the data were processed

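RNA was purified on columns and made into Illumina libraries, per the labels' protocols. The authors deposited normalized counts per gene symbol, a signal value whose normalization method, counter and annotation are not given in the sources used here. The submitters' processing notes name hg19, Bowtie, Bowtie2, Trim Galore, Picard and MACS2 without assigning them to a data type. Groups were taken from titles, and nothing says whether libraries of a group came from separate cultures, so p-values may measure technical spread.

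log2(normalized count + 1) was fitted with limma 3.58.1 in R 4.3.3 (intensity trend, no block) for genes with a mean of at least 10, with Benjamini-Hochberg adjustment over all genes tested and a threshold of 0.05. Fold changes on this scale understate changes of low genes. The script was tested on simulated data. Their variance followed a smooth trend with level, as the fit assumes, so the test cannot show how far calls depend on that trend. Named are the 8 genes, HNF4A, up to 6 called genes of each list by smallest p, tested neighbours and the 3 nearest patterns per called factor; CDH1, KRT7, SPDEF, BCMO1, MAFA, MUC6, IAPP, NEUROD1, COL1A1, ALB, TTR, APOB, TAT, CYP3A4 and PRSS1 were named after their values were seen. Single values of 1 gene of a list are not reported here, and it is included in the counts. The 8 genes and the lists were chosen with earlier results of these data known. Promoter letters come from RefSeq, GRCh38.p14, and the motifs were chosen after the sequences were seen.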

Additional observations from a re-analysis of the deposited data

How the results depend on the processing

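The 2 libraries a group limit what can be called. FOXA3 and ISX were called with either other pseudocount, either rescaling, quantile normalization, the filter at a mean of 50, the robust prior and the replicate block, and were not called in 2 settings. Without the filter, all genes with any value above 0 were tested, which left FOXA3 at 0.52 (adjusted p = 0.109 in limma) and ISX at 0.34 (adjusted p = 0.0882), with 726 genes called of 30247 tested and 0 of the 8. The count called moved by more than 1.5 times in 5 lists: 4 gut transcription factors, 2 CDX2-dependent genes, and 1 each of the FOXA-dependent, forkhead and SOX genes. Without the variance trend FOXA3 (0.52, adjusted p = 0.158 in limma), ISX (0.34, adjusted p = 0.174) and each list had 0 calls, as had all 15577 genes, of which 3524 had an unadjusted p under 0.05. The cause was not tested. Equal totals and quantile normalization left 1 FOXA-dependent gene called. 

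Leaving out 1 library at a time gave 906 to 2413 called genes and 0 to 2 of the 8. The log2 fold change ranged from 0.37 to 0.67 for FOXA3, 0.27 to 0.42 for ISX, 0.19 to 0.32 for FOXA2, 0.030 to 0.21 for FOXA1 and 0.039 to 0.11 for CDX2. It changed sign in CDX1 (-0.046 to 0.075), SOX9 (-0.091 to 0.012) and PDX1 (-0.033 to 0.19), which were not called in any of these fits. Called genes ranged from 4 to 9 for gut transcription factors, 2 to 4 for CDX2-dependent, 1 to 2 for FOXA-dependent, 9 to 10 for stem and progenitor, 1 to 4 for forkhead and 1 to 2 for SOX genes. The within-library log2 ratio difference of FOXA2/FOXA1 ranged from -0.028 to 0.29, that of FOXA3/FOXA2 from 0.19 to 0.34 and that of CDX1/CDX2 from -0.086 to -0.031. Over the alternatives the median log2 fold change ranged from 0.098 to 0.17 for the 8 genes, 0.22 to 0.37 for gut transcription factors, -0.037 to 0.087 for CDX2-dependent, -0.24 to 0.28 for FOXA-dependent, 0.032 to 0.20 for stem and progenitor, -0.22 to 0.51 for ISX or PDX1 targets, 0.017 to 0.26 for forkhead and 0.29 to 0.53 for SOX genes. Neighbours that changed sign were LINC00543 (-0.14 to 0.36), MIPOL1 (-0.12 to 0.13), DMWD (-0.072 to 0.27), PDGFRB (-0.13 to 0.32) and SYMPK (-0.054 to 0.14), and quantile normalization moved MIPOL1 to -0.032 and PDGFRB to -0.076.

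Libraries with the same replicate number did not deviate together (Pearson correlation -0.019 over 15577 genes), and were not treated as pairs. With the replicate block 2428 genes were called, FOXA3 and ISX stayed called (adjusted p = 0.0138 and 0.0149 in limma), and 1 SOX gene was called in place of 2.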
